A study of Mus musculus with 20 samples.

Results

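The scar-forming and structural side of the mouse liver was followed through 45 genes of hepatic stellate cells and the extracellular matrix. The genes were chosen by symbol, with earlier results of these data known. They are collagens, other matrix proteins, enzymes and inhibitors of matrix remodelling, the growth factors and receptors around them, and markers of stellate and other mesenchymal cells. All 45 were found among the 36106 genes of the counts table. Of these, 44 had enough reads to be tested together with 16164 genes in all, and Timp1, an inhibitor of matrix metalloproteinases with 0 to 42 estimated counts per library, did not.

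Liver RNA came from male mice in 4 groups. The testes, the main source of testosterone, had been removed by orchiectomy (ORX) or left in place after a sham operation. For 2 weeks the animals then breathed normal air (normoxia, Nx) or air with repeated falls in oxygen (intermittent hypoxia, IH), a way to model sleep apnoea. Sham-operated mice in normoxia form Sham_Nx (4 libraries, mice 2 to 5), and those in intermittent hypoxia Sham_IH (5 libraries). Orchiectomized mice in normoxia form ORX_Nx, and those in intermittent hypoxia ORX_IH (5 libraries each). Sham_Nx mouse 1 had no counts column and was not analysed, and neither strain nor age was given. Libraries are called by group and mouse number.

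Hepatic stellate cells lie between hepatocytes and sinusoidal endothelium, where they store vitamin A. When the liver is injured they can turn into contractile, collagen-secreting myofibroblasts, a change driven by transforming growth factor beta and platelet-derived growth factor, and the fibrillar collagens they lay down make up the scar of liver fibrosis. Portal fibroblasts, smooth muscle and endothelial cells add to the same matrix, so these transcripts are not made by stellate cells alone.

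The 19 libraries held between 29.3 and 69.6 M estimated counts. At the shallowest, a detection floor of 3 counts was worth 0.102 reads per 1e6 (CPM, here relative to the library total after scaling by trimmed mean of M-values), a limit that covers counting error only. Summed hepatocyte markers lay between 79370 and 128015 CPM, as liver tissue should show, and the stellate cell markers Des, Lrat, Reln, Pdgfrb, Hgf and Ngfr were detected in every library. Some libraries stood apart in RNA of other tissues. The sum of 20 skeletal muscle genes was 1482 CPM in ORX_IH 1, 882 in ORX_IH 2, 251 in Sham_Nx 2 and 66.0 in Sham_Nx 3, against at most 52.2 in the others, and its leading genes Acta1 and Ckm reached 225 and 76.7 CPM in ORX_IH 1. The sum of 11 pancreatic acinar genes was 1312 CPM in Sham_IH 5, 539 in Sham_Nx 5 and 232 in ORX_IH 1, against at most 25.9 elsewhere. Results that rest on these libraries are given with and without them.

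Per base of transcript, the members ranged widely in untreated mice. In length-normalised CPM (RPKM, computed here from the counts), the highest Sham_Nx levels were those of the integrin subunit Itgb1 at 64.7 ± 1.92 (mean ± SD, n = 4) and of the proteoglycan decorin, Dcn, at 64.1 ± 2.85. Biglycan (Bgn), another small proteoglycan, followed at 35.6 ± 2.05, then the membrane-bound metalloproteinase Mmp14 at 22.5 ± 4.12 and the collagen-binding protein Sparc at 18.0 ± 1.19. Itgb1 and Dcn did not differ beyond their spread, and neither did Mmp14 and Sparc. The major fibrillar collagens were far lower, with Col3a1 at 3.27 ± 0.69, Col1a2 at 1.63 ± 0.23 and Col1a1 at 0.647 ± 0.198 RPKM. Lowest were the crosslinking enzyme Lox at 0.0956 ± 0.0636 and Timp1 at 0.0633 ± 0.0508, whose spreads overlapped.

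Removing the testes in normoxia was accompanied by higher levels across the matrix genes. Of the 44 members tested, 19 rose and 0 fell in ORX_Nx against Sham_Nx (edgeR quasi-likelihood test, Benjamini-Hochberg adjusted p under 0.05 over all genes), while 26 had an unadjusted p under 0.05 (59.1%, against 30.3% of all genes). The 19 are 43.2% of the members, where 7.88% of all genes tested rose, 6.46% fell and 14.3% were called in either direction. Because the members were chosen with earlier results of these data known, these shares describe the list and are not an independent test of it. With library totals alone in place of scaling factors, 24 members rose. That setting moved the median log2 change of all genes from 0.01 to 0.14 and the calls over all genes from 1274 higher of 2319 to 2362 higher of 2734. The median log2 change of the members was 0.58 against 0.01 over all genes, and 0.72 against 0.14 without scaling factors. In direction, 40 of 44 members were positive, against 51.9% of all genes; the exceptions Tgfbr2, Pdgfra, Itgb1 and Des turned positive without scaling factors. No member lay below Sham_Nx in every library, where 6.65% of all genes did. In bulk tissue, more cells of a type and more RNA per cell cannot be told apart.

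The rise was uneven between mice. ORX_Nx 5 lay above every Sham_Nx library in 40 of 44 members, and ORX_Nx 3 and ORX_Nx 4 did so in 36 each, whereas ORX_Nx 1 did so in 21 and ORX_Nx 2 in 11. Over all genes tested, these shares were 34.3, 29.2, 31.3, 27.8 and 27.6% in the same order, so ORX_Nx 2, with 25% of members, was near the background. Among the other groups ORX_IH 1 came closest with 33 members, followed by ORX_IH 2 and Sham_IH 5 with 27 each.

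**Figure D1:**
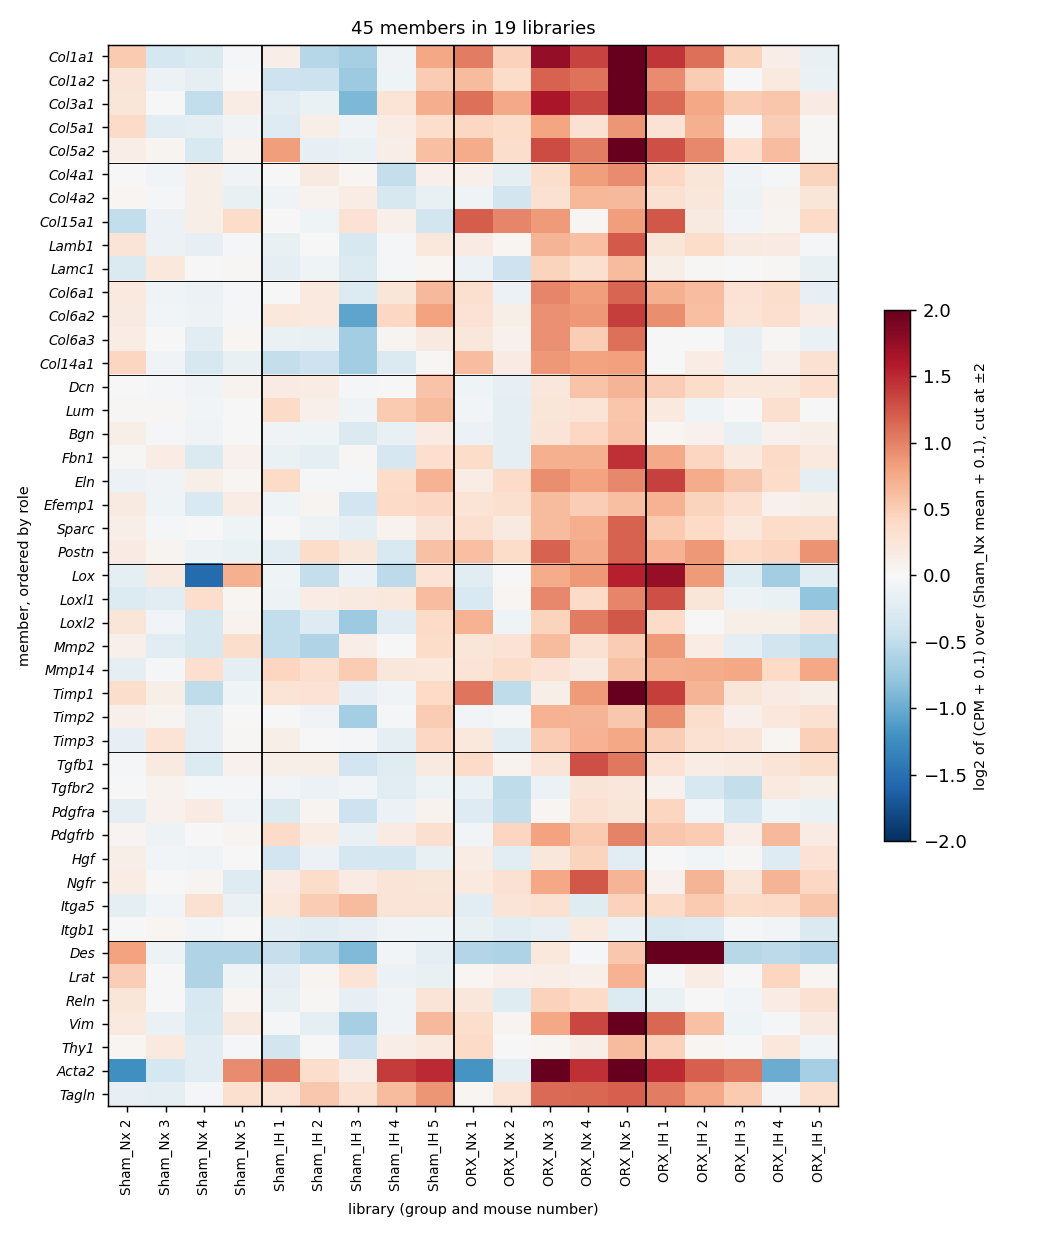
Level of each of the 45 members (vertical, grouped by role between thin lines) in each of the 19 libraries (horizontal, groups separated by thick lines), as log2 of CPM plus 0.1 over the Sham_Nx mean plus 0.1, with colours ending at 2 in either direction. Red bands run down ORX_Nx 3, 4 and 5, with paler ones in ORX_IH 1, ORX_IH 2 and Sham_IH 5, while ORX_Nx 2 is close to the Sham_Nx libraries.

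**Figure D2:**
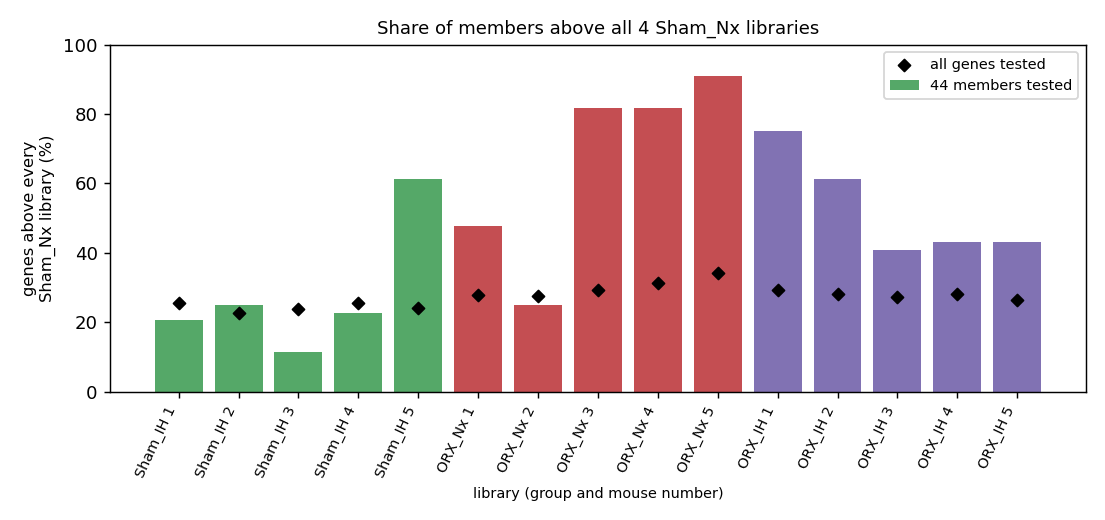
Bars give the percent of the 44 tested members that lay above all 4 Sham_Nx libraries in each other library, coloured by group, and diamonds give the same percent over all 16164 genes tested. ORX_Nx 5 reached 90.9% of members against 34.3% of all genes, and Sham_IH 3 was lowest with 11.4% against 23.9%.

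The fibrillar collagens, which form the tensile fibres of scar tissue, were the role with the highest median change (1.44), and 5 of 5 rose. Col3a1, the chain of type III collagen, had the smallest adjusted p of all members. It stood at 12.2, 10.2, 7.30 and 11.5 CPM in Sham_Nx 2 to 5 and at 22.2, 17.5, 32.0, 25.9 and 59.6 CPM in ORX_Nx 1 to 5. All ORX_Nx libraries were above all Sham_Nx libraries, with mouse 5 well above the rest. Under intermittent hypoxia Col3a1 was at 8.84, 9.34, 5.47, 12.4 and 17.1 CPM in Sham_IH 1 to 5 and at 22.6, 17.6, 14.7, 15.2 and 11.6 CPM in ORX_IH 1 to 5, groups that overlap. The log2 change in ORX_Nx against Sham_Nx was 1.61 ± 0.34 (± SE; edgeR adjusted p = 0.00544).

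The stretch before the Col3a1 start site is shown beside those of 3 other genes that rose and had every ORX_Nx library above Sham_Nx, so that the members that moved together can be read side by side. Sequences are the 250 bases upstream of the RefSeq start on build GRCm38.p6, an older build than the authors' GRCm39, read 5′ to 3′ on the strand of the gene. Capitals mark the CCAAT box, the TATAAA element and the GC-rich motif GGGCGG on either strand. The windows are chr1:45311288-45311537 (+) for Col3a1, chr6:4505368-4505617 (+) for Col1a2, chr3:54360857-54361106 (+) for the downstream of the 2 Postn starts and chr11:55420081-55420330 (-) for Sparc.
Col3a1: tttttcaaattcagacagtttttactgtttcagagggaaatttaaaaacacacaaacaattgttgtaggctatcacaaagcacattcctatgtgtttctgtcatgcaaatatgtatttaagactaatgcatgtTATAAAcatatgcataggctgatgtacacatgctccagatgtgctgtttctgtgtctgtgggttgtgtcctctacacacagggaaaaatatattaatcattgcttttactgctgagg
Col1a2: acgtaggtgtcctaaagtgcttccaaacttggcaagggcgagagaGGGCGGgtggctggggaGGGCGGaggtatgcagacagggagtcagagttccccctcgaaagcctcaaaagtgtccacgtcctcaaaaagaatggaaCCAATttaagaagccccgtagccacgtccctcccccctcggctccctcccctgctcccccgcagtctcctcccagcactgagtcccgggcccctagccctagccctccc
Postn: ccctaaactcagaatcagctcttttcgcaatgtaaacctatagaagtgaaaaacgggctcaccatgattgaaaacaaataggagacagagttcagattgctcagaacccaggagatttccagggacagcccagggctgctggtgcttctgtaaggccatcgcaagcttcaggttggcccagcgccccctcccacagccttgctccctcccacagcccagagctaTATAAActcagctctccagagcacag
Sparc: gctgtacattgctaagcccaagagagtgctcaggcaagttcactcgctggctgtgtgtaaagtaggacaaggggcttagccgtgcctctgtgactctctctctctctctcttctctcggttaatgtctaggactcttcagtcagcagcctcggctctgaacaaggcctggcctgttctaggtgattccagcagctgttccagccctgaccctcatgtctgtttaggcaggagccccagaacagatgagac

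The 4 windows have little in common in these letters. Col3a1 and the Postn start shown each hold 1 TATAAA, Col1a2 holds 1 CCAAT and 2 GGGCGG, and Sparc holds none of the 3 motifs. The upstream Postn start, not printed, holds none either, at 40.4% guanine and cytosine. Guanine and cytosine made up 35.2% of the Col3a1 window, 62.0% of that of Col1a2, 52.0% of that of Postn and 54.0% of that of Sparc. RefSeq windows were available for 31 of the 45 members and for 13 of the 19 that rose. Motifs were searched only in the bases upstream of each start, and not past it. TATAAA was found in 21.4% of the 14 windows of members that rose. The share was 8.82% of the 34 member windows and 12.4% of all 32851 windows. CCAAT was found in 28.6, 29.4 and 33.8% and GGGCGG in 42.9, 58.8 and 32.7% in the same order, the motifs being counted on both strands. A match is a description of the letters and not a binding site.

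The chains of type I collagen, the bulk of fibrotic scar, followed the same order of mice as Col3a1 at the top. Col1a1 was at 5.35, 2.88, 3.02 and 3.60 CPM in Sham_Nx and at 7.63, 5.15, 12.8, 9.60 and 28.7 CPM in ORX_Nx, where ORX_Nx 2 lay just below Sham_Nx 2. In Sham_IH it was at 4.06, 2.46, 2.31, 3.51 and 6.41 CPM and in ORX_IH at 10.2, 8.12, 5.08, 4.07 and 3.34 CPM. ORX_IH 1 and 2, the libraries with the most muscle RNA, were thus above all sham mice, and ORX_IH 3 to 5 among them. The ORX_Nx change of Col1a1 was 1.78 ± 0.45 (log2 ± SE; adjusted p = 0.0159), the highest of all members, and fell to 1.24 without ORX_Nx 5.

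Its partner chain Col1a2 was at 9.92, 7.58, 7.25 and 8.27 CPM in Sham_Nx and at 12.9, 10.7, 18.8, 17.5 and 36.5 CPM in ORX_Nx, with no overlap. In Sham_IH the values were 6.14, 6.09, 4.92, 7.81 and 11.8 CPM, and in ORX_IH 16.0, 11.7, 8.32, 9.48 and 7.54 CPM. The hypoxia groups overlapped, and the ORX_Nx change was 1.22 ± 0.32 (adjusted p = 0.0178). Col5a2 and Col5a1 encode chains of type V collagen, which starts and sizes the fibrils. Col5a2 was at 2.05, 1.93, 1.49 and 1.95 CPM in Sham_Nx and at 3.18, 2.40, 4.70, 3.86 and 11.1 CPM in ORX_Nx. Again no library overlapped, and the change was 1.44 ± 0.38 (adjusted p = 0.0185). In Sham_IH, Col5a2 was at 3.38, 1.64, 1.68, 2.04 and 2.86 CPM and in ORX_IH at 4.66, 3.69, 2.37, 2.89 and 1.89 CPM. Col5a1 was at 7.48, 4.92, 4.94 and 5.40 CPM in Sham_Nx and at 7.63, 7.36, 9.85, 7.01 and 10.6 CPM in ORX_Nx, where Sham_Nx 2 reached into the ORX_Nx range. The Col5a1 change was the lowest of the group, 0.58 ± 0.18 (adjusted p = 0.0371). Its Sham_IH values were 4.74, 6.18, 5.39, 6.34 and 7.28 CPM and its ORX_IH values 6.96, 9.39, 5.73, 8.02 and 5.76 CPM.

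Summed over the 5 fibrillar collagens, the level was 29.8 ± 5.54 CPM in Sham_Nx (SD, n = 4), 30.0 ± 9.68 in Sham_IH, 77.0 ± 41.0 in ORX_Nx and 43.4 ± 12.1 in ORX_IH (n = 5 each). The sum was 60.4 and 50.5 CPM in ORX_IH 1 and 2, the libraries with muscle RNA. In ORX_IH 3 to 5 it was 36.2, 39.6 and 30.1 CPM, within the Sham_IH range of 19.8 to 45.5 CPM. ORX_Nx 5 alone reached 146.5 CPM, ORX_Nx 3 reached 78.2 and ORX_Nx 4 reached 63.9.

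**Figure D3:**
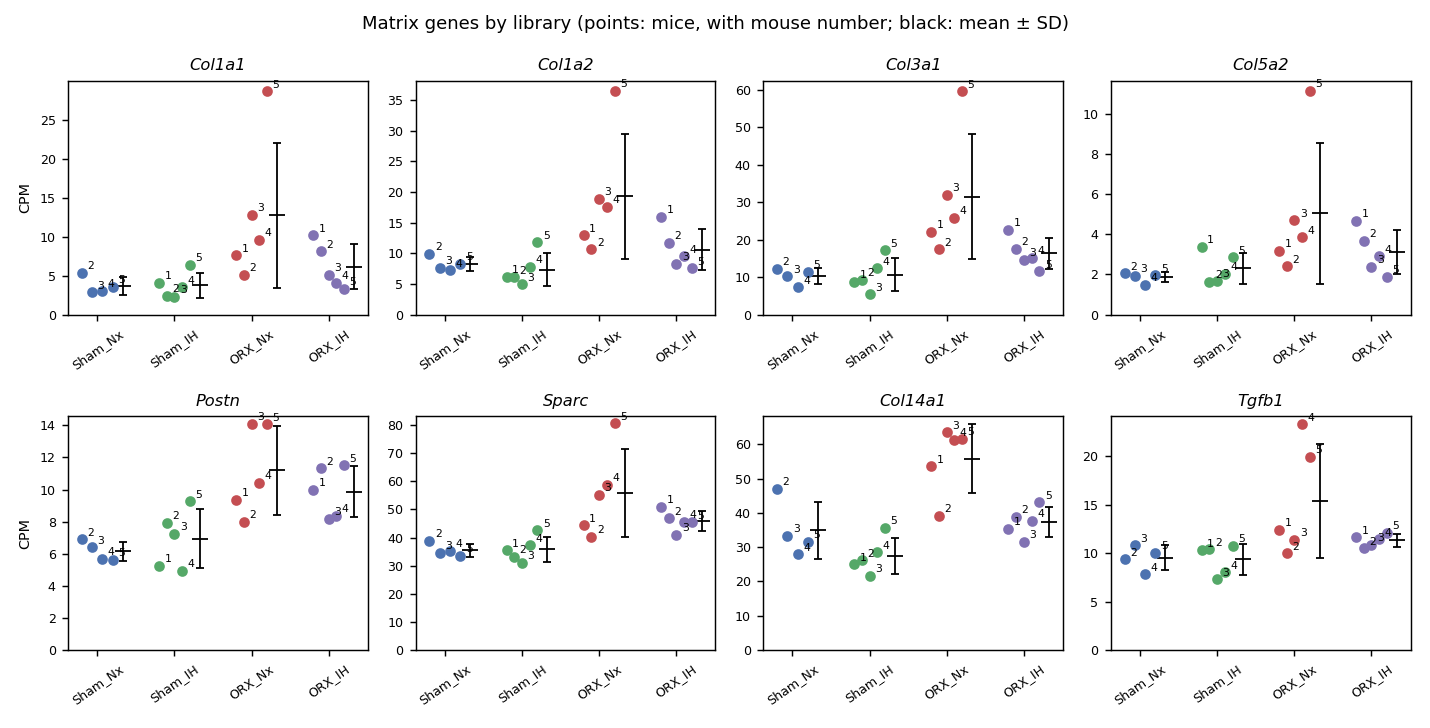
CPM of 8 members in each library (points numbered by mouse, coloured by group; black bars give mean ± SD, n = 4 for Sham_Nx and n = 5 for the others), on linear axes from 0. Col1a2, Col3a1, Col5a2, Postn and Sparc are above every Sham_Nx library in all 5 ORX_Nx libraries, and ORX_Nx 5 is highest of all for Col1a1, Col1a2, Col3a1, Col5a2 and Sparc.

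Other collagens sit on or between the fibrils. Of 4 microfibrillar and fibril-associated collagens 3 rose, with changes between 0.63 for Col6a3 and 0.72 for Col6a1. Col6a2 had the highest value of the group, 0.80 ± 0.29, and did not pass (adjusted p = 0.0729). Col14a1, which coats fibrils and marks fibroblasts, was at 46.9, 33.3, 27.9 and 31.5 CPM in Sham_Nx and at 53.5, 39.0, 63.5, 61.2 and 61.6 CPM in ORX_Nx. Mouse 2 of each group made the ranges overlap, and the change was 0.68 ± 0.16 (adjusted p = 0.0120). Col14a1 was at 25.0, 26.2, 21.6, 28.4 and 35.6 CPM in Sham_IH and at 35.3, 38.9, 31.5, 37.6 and 43.1 CPM in ORX_IH. Col6a3, a chain of the beaded filaments of type VI collagen, was at 6.19, 5.53, 4.78 and 5.67 CPM in Sham_Nx and at 6.48, 5.88, 10.6, 7.85 and 12.1 CPM in ORX_Nx. Its Sham_IH values were 5.07, 4.97, 3.38, 5.79 and 6.32 CPM, and its ORX_IH values 5.51, 5.54, 4.95, 5.61 and 5.04 CPM. Every ORX_IH library was below every ORX_Nx library for Col6a3, whose ORX_Nx change was 0.63 ± 0.19 (adjusted p = 0.0357).

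Basement membrane genes, which encode the sheet under endothelium and bile ducts, gave 2 calls in 5. Col15a1 rose by 0.84 ± 0.26 (adjusted p = 0.0393) and the laminin chain Lamb1 by 0.61 ± 0.18 (adjusted p = 0.0354). The lowest value was that of the laminin chain Lamc1, 0.22 ± 0.15, which did not pass, nor did the type IV collagen chains Col4a1 at 0.47 ± 0.19 and Col4a2 at 0.29 ± 0.17. Lamb1 was at 8.92, 6.83, 6.66 and 7.35 CPM in Sham_Nx and at 8.39, 7.62, 12.0, 11.3 and 17.5 CPM in ORX_Nx, so that ORX_Nx 1 and 2 lay within the Sham_Nx range. In Sham_IH it was at 6.68, 7.46, 5.97, 7.28 and 8.63 CPM and in ORX_IH at 8.81, 9.59, 8.47, 8.37 and 7.35 CPM.

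Of 8 proteoglycans, elastic fibre and matricellular proteins 2 rose, and all 8 were positive. Postn (periostin), secreted by activated fibroblasts, was at 6.90, 6.39, 5.70 and 5.62 CPM in Sham_Nx and at 9.36, 8.00, 14.1, 10.4 and 14.1 CPM in ORX_Nx. No library overlapped, and the change was 0.86 ± 0.19 (adjusted p = 0.00832). Postn was at 5.24, 7.95, 7.23, 4.95 and 9.27 CPM in Sham_IH and at 9.99, 11.3, 8.18, 8.35 and 11.5 CPM in ORX_IH. The ORX_IH libraries were all above Sham_Nx, while Sham_IH 5 reached into their range.

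Sparc was at 38.9, 34.5, 35.2 and 33.5 CPM in Sham_Nx and at 44.3, 40.3, 55.1, 58.6 and 80.6 CPM in ORX_Nx, again without overlap, a change of 0.65 ± 0.15 (adjusted p = 0.00840). In Sham_IH it was at 35.5, 33.2, 30.9, 37.2 and 42.5 CPM and in ORX_IH at 50.8, 46.8, 41.0, 45.7 and 45.4 CPM. Elastin (Eln, 0.70 ± 0.25, adjusted p = 0.0693) and the elastic fibre protein Efemp1 (0.48 ± 0.16, adjusted p = 0.0558) also had every ORX_Nx library above every Sham_Nx library without passing the test. Fibrillin 1 (Fbn1), of the microfibrils that carry elastin, was at 0.73 ± 0.24 (adjusted p = 0.0522). The small leucine-rich proteoglycans that bind collagen fibrils had low values, 0.28 for Dcn, 0.22 for Bgn and 0.19 for lumican (Lum), the lowest of the group. Over all members, 8 of 44 had no overlap in the upward direction, which is 18.2% against 5.69% of all genes: Col1a2, Col3a1, Col5a2, Eln, Efemp1, Sparc, Postn and the receptor Ngfr.

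Among the enzymes and inhibitors that crosslink and turn over matrix, 2 of 7 tested rose. Loxl2, a lysyl oxidase that crosslinks collagen, rose by 0.76 ± 0.24 (adjusted p = 0.0417), and Mmp14, which cleaves collagen at the cell surface and activates Mmp2, rose by 0.35 ± 0.11 (adjusted p = 0.0438), the lowest value of the group. The highest was that of Lox, 0.85 ± 0.59, at 30.9 estimated counts per library on average, and it did not pass. The inhibitors Timp2 at 0.41 ± 0.21 and Timp3 at 0.44 ± 0.17 did not pass either. Timp1 was at 0.0811, 0.0551, 0.00 and 0.0346 CPM in Sham_Nx and at 0.201, 0.00, 0.0550, 0.156 and 1.17 CPM in ORX_Nx. Only ORX_Nx 5, ORX_Nx 1 and ORX_Nx 4 exceeded the floor of the shallowest library among these. In Sham_IH Timp1 was at 0.0718, 0.0744, 0.0275, 0.0355 and 0.0888 CPM, and in ORX_IH at 0.274, 0.129, 0.0689, 0.0603 and 0.0548 CPM.

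The signalling genes split. Of 8 growth factors and receptors 3 rose, while the median of the group was 0.12. The ligand Tgfb1, the main inducer of collagen synthesis in stellate cells, was at 9.35, 10.8, 7.82 and 10.1 CPM in Sham_Nx and at 12.4, 9.98, 11.4, 23.3 and 19.9 CPM in ORX_Nx. Its rise of 0.69 ± 0.20 (adjusted p = 0.0302) was carried most by ORX_Nx 4 and 5. In Sham_IH Tgfb1 was at 10.3, 10.4, 7.29, 8.00 and 10.7 CPM and in ORX_IH at 11.6, 10.5, 10.8, 11.4 and 12.1 CPM. The receptor subunit Tgfbr2 had a change of -0.03 ± 0.14.

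Pdgfrb, the receptor through which platelet-derived growth factor makes stellate cells divide, was at 6.63, 5.91, 6.32 and 6.59 CPM in Sham_Nx and at 6.14, 8.62, 11.2, 9.18 and 12.8 CPM in ORX_Nx. All ORX_Nx libraries except mouse 1 were above Sham_Nx, a rise of 0.59 ± 0.17 (adjusted p = 0.0275). In Sham_IH it was at 8.37, 7.05, 5.78, 7.15 and 8.01 CPM and in ORX_IH at 9.25, 9.13, 7.01, 10.1 and 7.15 CPM. The related receptor Pdgfra, a portal fibroblast and stellate marker, had a change of -0.00086 ± 0.17 with a 95% interval from -0.36 to 0.36.

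Ngfr, the neurotrophin receptor of stellate cells, was at 3.24, 2.96, 3.05 and 2.44 CPM in Sham_Nx and at 3.35, 3.61, 5.06, 7.06 and 4.72 CPM in ORX_Nx. The groups did not overlap, and the rise was 0.70 ± 0.19 (adjusted p = 0.0187), the highest of the signalling genes. Ngfr was at 3.30, 3.82, 3.30, 3.53 and 3.46 CPM in Sham_IH, all above Sham_Nx, and at 3.11, 4.74, 3.47, 4.75 and 3.95 CPM in ORX_IH. Hgf, the hepatocyte growth factor that stellate cells secrete, had a change of 0.10 ± 0.13, and the integrins Itga5 and Itgb1, which bind fibronectin, had 0.14 ± 0.14 and -0.08 ± 0.08, the latter being the lowest of all members.

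Markers of stellate cell identity and of contractile cells gave 2 calls in 7. Vim (vimentin), an intermediate filament of mesenchymal cells and many leukocytes, rose by 1.12 ± 0.36 (adjusted p = 0.0458). Tagln, an actin-binding protein of smooth muscle and myofibroblasts, was at 4.36, 4.28, 4.80 and 6.16 CPM in Sham_Nx and at 5.04, 5.94, 10.9, 10.9 and 11.3 CPM in ORX_Nx. Mice 3 to 5 were high and mice 1 and 2 within the Sham_Nx range, a rise of 0.85 ± 0.25 (adjusted p = 0.0293). In Sham_IH Tagln was at 5.93, 7.15, 6.08, 7.68 and 9.13 CPM and in ORX_IH at 10.1, 8.33, 7.07, 4.81 and 6.14 CPM.

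Acta2, the smooth muscle actin by which myofibroblasts are recognised, had the highest value of these markers without passing. It was at 0.872, 1.69, 1.86 and 4.33 CPM in Sham_Nx and at 0.904, 1.93, 13.2, 6.18 and 11.4 CPM in ORX_Nx, a change of 1.61 ± 0.69 (adjusted p = 0.120). Again mice 3 to 5 were high and mice 1 and 2 were not. In Sham_IH it was at 4.63, 2.81, 2.42, 5.91 and 6.36 CPM and in ORX_IH at 6.33, 5.16, 4.71, 1.06 and 1.34 CPM. Actin genes are alike in sequence, and how reads were split among them was not tested.

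The vitamin A enzyme Lrat, the most specific stellate cell marker of the list, was at 18.9, 13.5, 8.79 and 12.6 CPM in Sham_Nx and at 13.8, 14.4, 14.7, 14.4 and 21.8 CPM in ORX_Nx. The groups overlapped, and the change was 0.24 ± 0.18 with a 95% interval from -0.14 to 0.61 (adjusted p = 0.403). Lrat was at 11.7, 14.0, 16.2, 12.4 and 12.1 CPM in Sham_IH and at 13.1, 14.9, 13.3, 18.1 and 13.8 CPM in ORX_IH. The glycoprotein reelin, Reln, another marker of quiescent and active stellate cells, had 0.15 ± 0.15, and the fibroblast marker Thy1 had 0.27 ± 0.17. Summed, Des, Lrat, Reln, Pdgfrb, Hgf and Ngfr were at 81.1 ± 14.1 CPM in Sham_Nx, 78.8 ± 5.94 in Sham_IH, 93.6 ± 13.6 in ORX_Nx and 98.8 ± 16.2 in ORX_IH, with ranges that overlap. Without ORX_IH 1 and 2, where muscle RNA and Des were high, the ORX_IH sum was 88.3 ± 8.25 CPM (n = 3).

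**Figure D4:**
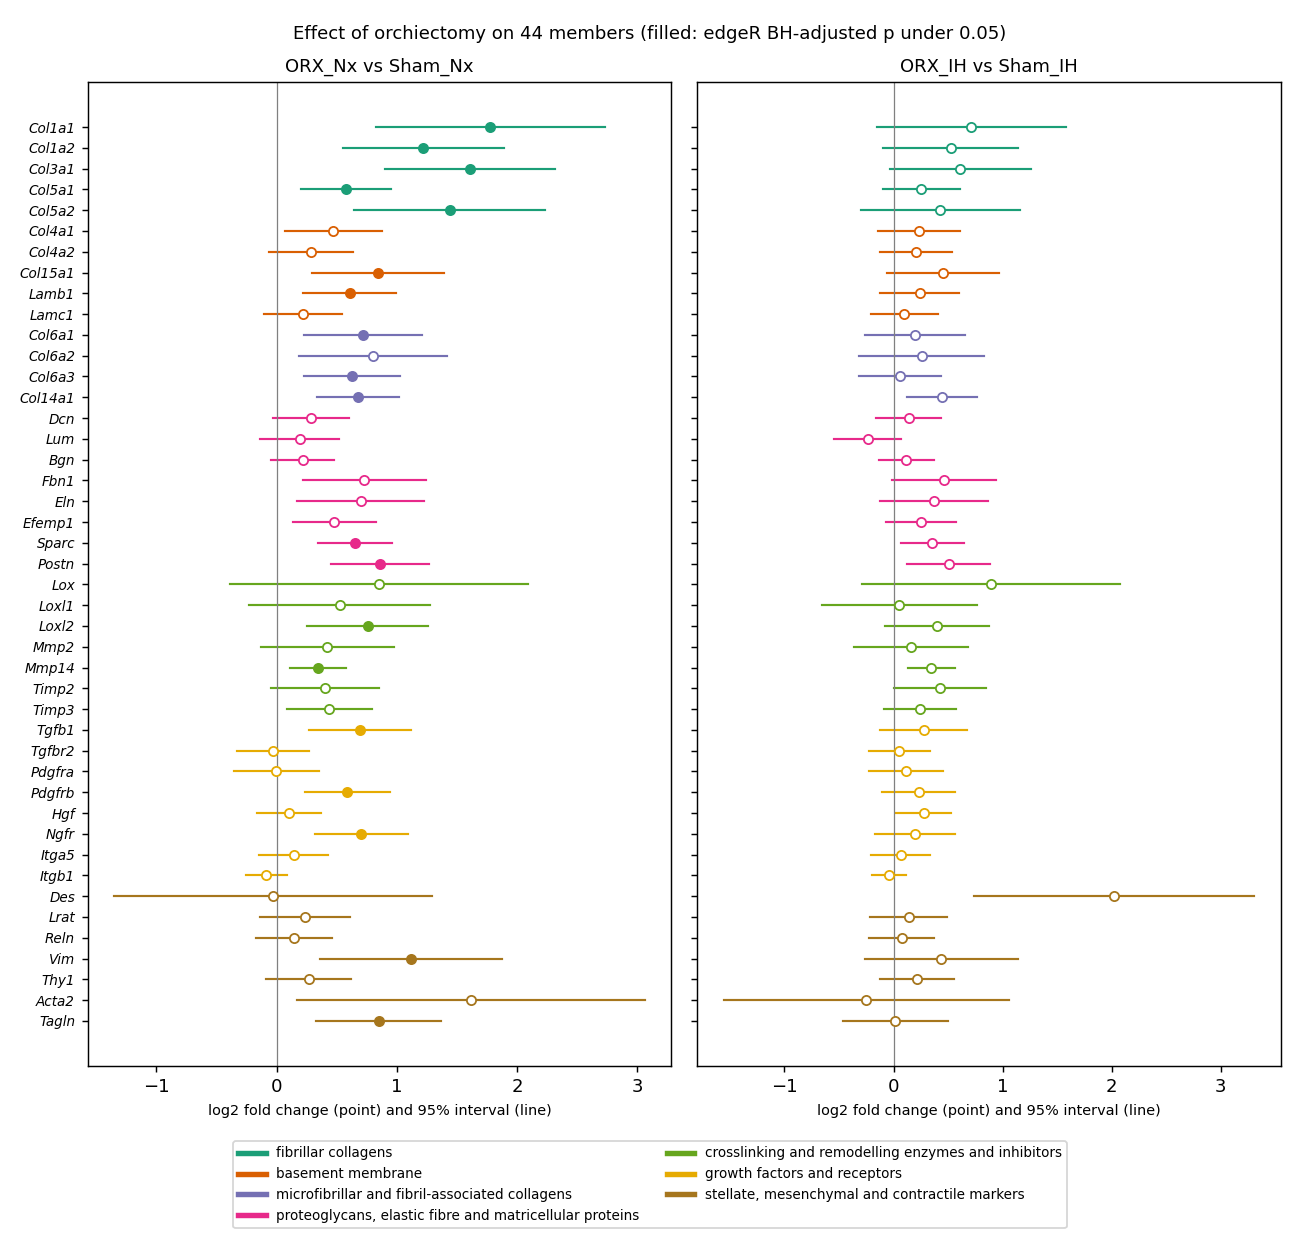
Log2 fold change (points) with 95% interval (lines) of the 44 tested members, coloured by role, for orchiectomy in normoxia (left) and under intermittent hypoxia (right); filled points have an edgeR adjusted p under 0.05. On the left 19 points are filled, led by the fibrillar collagens, and on the right none is, although 41 lie above 0.

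How many members passed depended on single libraries. The count of 19 fell to 10 without Sham_Nx 2, 9 without Sham_Nx 3, 5 without Sham_Nx 4, 9 without Sham_Nx 5, 11 without ORX_Nx 3 and 8 without ORX_Nx 5. Over all genes the share called fell as well, from 14.3% to 8.57, 10.9, 6.95, 8.34, 13.7 and 11.6% in the same order. The member count ranged from 5 to 22 over the 19 fits that each left out 1 library. Col3a1, Sparc and Postn passed in all 19 of those fits. Col1a1, Col1a2, Col5a2 and Col14a1 lost the call only without Sham_Nx 4 (adjusted p of 0.0555, 0.0590, 0.0640 and 0.0515), and Ngfr only without Sham_Nx 5 (0.0621). The other 11 lost it in 5 to 13 of the 19 fits. The count was 4 without ORX_Nx 4 and 5 and 1 without ORX_Nx 3, 4 and 5, the libraries highest in fibrillar collagens, a setting chosen after the data were seen. In the latter 30 of 45 members were positive and the median was 0.15. Over all genes 9.03 and 5.88% were called in these 2 settings. Leaving out the 4 libraries richest in muscle RNA gave 1 call, leaving out the 3 richest in acinar RNA gave 8, and fitting ORX_Nx and Sham_Nx alone gave 2. The median lay between 0.57 and 0.59 in those settings. Calls over all genes fell there too, to 2.53, 6.79 and 5.98% in that order. The libraries richest in muscle RNA include Sham_Nx 2 and 3, so without them Sham_Nx kept only mice 4 and 5. The 1 call in that fit was Col14a1, and Col3a1, Sparc and Postn were not called.

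Markers of other cells moved with the ORX_Nx group. Of 13 Kupffer cell and macrophage genes 11 rose in ORX_Nx against Sham_Nx, their sum lying between 230 and 374 CPM in Sham_Nx and at 546, 350, 305, 1305 and 848 CPM in ORX_Nx 1 to 5. The fibrillar collagen sums of the same 5 libraries were 53.5, 43.0, 78.2, 63.9 and 146.5 CPM in that order. Of 14 lymphocyte genes 3 rose, with sums between 7.51 and 12.9 CPM in Sham_Nx and between 17.0 and 35.8 CPM in ORX_Nx. Of 10 cholangiocyte genes 2 rose, with 8 positive and a median of 0.68, and of 3 neutrophil genes tested 1 rose. Of 20 skeletal muscle genes 3 fell. Their sum was 251, 66.0, 23.2 and 15.7 CPM in Sham_Nx 2 to 5 and between 17.8 and 52.2 CPM in ORX_Nx. Of 11 pancreatic acinar genes 0 were positive and 0 called, and 10 had an unadjusted p under 0.05 (edgeR). The acinar sum was 539 CPM in Sham_Nx 5, at most 14.5 in the other Sham_Nx libraries and at most 7.26 in ORX_Nx. Neutrophil markers summed to 36.5 CPM in ORX_Nx 4 and to at most 3.96 CPM in every other library. None of 12 sinusoidal endothelial genes was called (edgeR; 1 had an unadjusted p under 0.05). Hepatocyte markers were lowest in ORX_Nx 5, at 79370 CPM. The part of these cells in the change of the matrix genes was not tested.

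Under intermittent hypoxia, orchiectomy left no member past the threshold. In ORX_IH against Sham_IH 0 of 44 were called by edgeR, where 1.31% of all genes rose, 1.57% fell and 2.88% were called in either direction; 7 members (15.9%) had an unadjusted p under 0.05, against 17.2% of all genes, and DESeq2 called 2 (4.55%), against 5.36% of all genes. The direction was still upward in 41 of 44, against 49% of all genes, with a median of 0.24. Of markers of other cells, 12 of 13 Kupffer cell and macrophage genes were positive, with a median of 0.56. Of these, 8 lay above in every library and 0 were called. Of 14 lymphocyte genes 3 rose, and 2 lay above in every library. The lymphocyte sum was 57.8 CPM in ORX_IH 1 and at most 14.4 CPM in the other ORX_IH libraries. Of 20 skeletal muscle genes 14 rose, and 0 lay above in every library. The muscle sum was 1482 and 882 CPM in ORX_IH 1 and 2. In ORX_IH 3 to 5 it was below the Sham_IH maximum of 32.4 CPM. The part of these markers in the member changes was not tested. No member lay above or below in every library, where 2.77 and 3.07% of all genes did. Without scaling factors the calls over all genes went from 211 higher of 465 to 830 higher of 971, the median of all genes moved to 0.13 and 3 members rose. Mmp14 came nearest at 0.35 ± 0.10 (adjusted p = 0.0818), followed by Des at 2.02 ± 0.61 (adjusted p = 0.0839), Col14a1 at 0.44 ± 0.15 (0.139) and Postn at 0.50 ± 0.18 (0.151). Col3a1 was at 0.61 with a 95% interval from -0.03 to 1.26 (adjusted p = 0.319). Without ORX_IH 1 and 2, the libraries with muscle RNA, 34 were positive and the median was 0.12. Single libraries brought up to 2 calls when left out: Mmp14 without Sham_Nx 4, Mmp14 and Sparc without ORX_Nx 5, Des without ORX_IH 3 or 5, and Des and Mmp14 without ORX_IH 4.

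Des encodes desmin, a filament protein shared by stellate cells and muscle, and its level moved with the muscle genes, whose part in it was not tested. It was at 46.4 and 26.6 CPM in ORX_IH 1 and 2 and at 3.71, 3.80 and 3.65 CPM in ORX_IH 3, 4 and 5. The other libraries lay at 9.73, 5.10, 3.60 and 3.60 CPM in Sham_Nx, at 3.99, 3.57, 2.94, 5.32 and 4.83 CPM in Sham_IH and at 3.63, 3.54, 6.41, 5.40 and 8.02 CPM in ORX_Nx. The 3 libraries highest in muscle genes were thus the 3 highest in Des. Without ORX_IH 1 and 2 the change in ORX_IH against Sham_IH was -0.16, and that in ORX_IH against ORX_Nx went from 1.64 to -0.53. In ORX_Nx against Sham_Nx Des was at -0.03 ± 0.63, and at 0.39 without Sham_Nx 2.

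**Figure D5:**
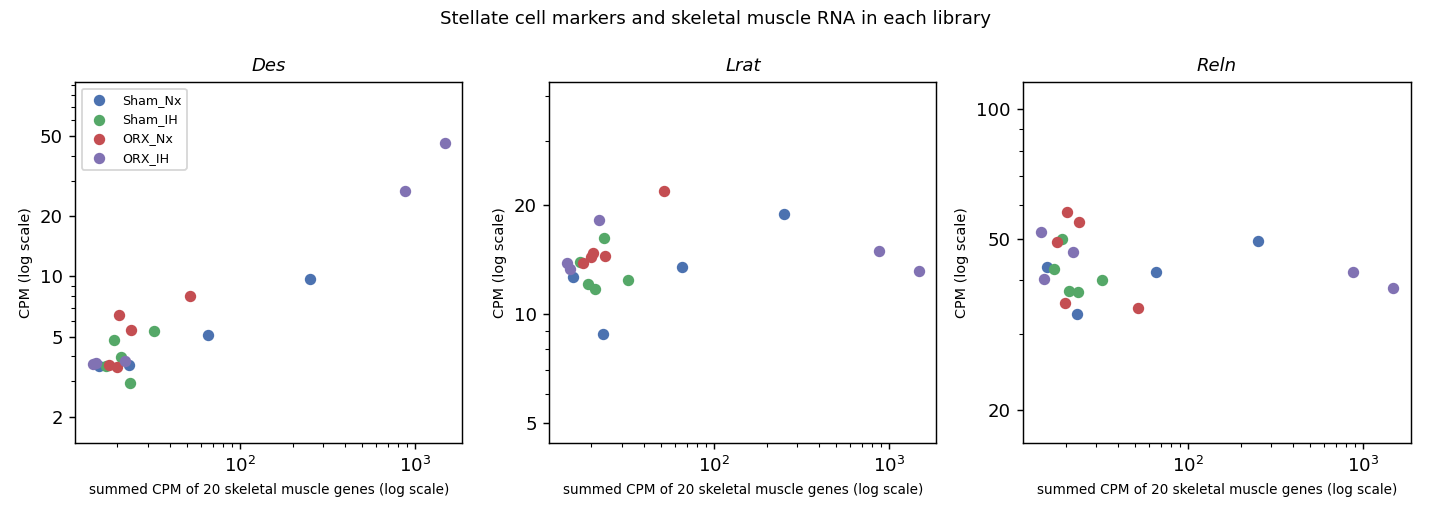
CPM of the stellate cell markers Des, Lrat and Reln (vertical, log scale) against the summed CPM of 20 skeletal muscle genes (horizontal, log scale), 1 point per library, coloured by group. Des is highest, at 46.4 and 26.6 CPM, in the 2 ORX_IH libraries with the most muscle RNA, whereas Lrat and Reln are within the range of the other libraries there.

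Intermittent hypoxia alone left no member past the threshold in sham-operated mice. In Sham_IH against Sham_Nx 0 of 44 members were called, where 0.099% of all genes rose, 0.204% fell and 0.303% were called in either direction. Of the members 21 were positive, against 51.1% of all genes, and the median was -0.01. An unadjusted p under 0.05 was found for 5 (11.4%, against 13.1% of all genes). DESeq2 called 0, against 2.56% of all genes. Mmp14 at 0.35 ± 0.11 (adjusted p = 0.171) and Itga5 at 0.38 ± 0.14 (0.226) had the lowest p. Ngfr was above in every library and Tgfbr2, Hgf and Itgb1 were below in every library, which is 2.27% of members against 4.31% of all genes and 6.82% against 4.21%. For Col3a1 the change was 0.05 with a 95% interval from -0.63 to 0.74, so moderate differences in either direction were not detectable at this spread.

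In orchiectomized mice, intermittent hypoxia was accompanied by lower values that did not pass. In ORX_IH against ORX_Nx 0 of 44 members were called by edgeR, where 0.0186% of all genes rose, 0.0557% fell and 0.0742% were called in either direction; 11 members (25%) had an unadjusted p under 0.05, against 17.1% of all genes. DESeq2 called Col14a1 and Col6a3 as lower and Mmp14 as higher, which is 6.82% of members against 4.4% of all genes by that tool. Only 5 members were positive, against 48.2% of all genes, and the median was -0.22. None of 13 Kupffer cell and macrophage genes was positive (median -0.84, 0 called, 11 with an unadjusted p under 0.05), and their part was not tested. Scaling by DESeq2 size factors took the calls over all genes from 3 higher of 12 to 7 higher of 16. Col6a3 alone lay lower in every library and 0 members higher, where 1.12 and 1.18% of all genes did. Col14a1 was at -0.58 ± 0.15 and Col6a3 at -0.68 ± 0.18 (both adjusted p = 0.0772), and both were called without ORX_Nx 2. Col3a1 was at -0.94 ± 0.31 (0.126) and Col1a1 at -1.04 ± 0.41 (0.196). The median was -0.0015 without ORX_Nx 4 and 5, with 21 of 44 positive, and 0.21 without ORX_Nx 3, 4 and 5.

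Whether orchiectomy acted differently in the 2 exposures was tested by the interaction. It called 0 of 44 members and 0 genes in all, with 4 members (9.09%) and 1025 genes (6.34%) at an unadjusted p under 0.05. DESeq2 called 0 members and 63 genes (0.39%). Of the members 7 were positive, against 46.6% of all genes. The smallest p belonged to Tagln, at -0.83 ± 0.34 (adjusted p = 0.739), and to Des at 2.05 ± 0.87 (0.752), and the 95% interval of Col3a1 ran from -1.93 to -0.06 (0.776). The calls in normoxia and their absence under intermittent hypoxia are therefore not shown to differ.

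With both treatments against neither, 2 members rose. In ORX_IH against Sham_Nx these were Mmp14 at 0.69 ± 0.11 (adjusted p = 0.000725) and Postn at 0.68 ± 0.19 (adjusted p = 0.0344), which is 4.55% of members, where 3.53% of all genes rose, 5.1% fell and 8.62% were called in either direction. Without scaling factors these gene counts went from 570 higher of 1394 to 1157 higher of 1514. Of the members 40 were positive, against 52.7% of all genes. The fibronectin receptor chain Itga5 was next at 0.45 ± 0.14 (adjusted p = 0.0503). Dcn, Fbn1, Sparc, Postn, Mmp14, Timp2, Pdgfrb and Itga5 were above Sham_Nx in every ORX_IH library, which is 18.2% of members against 5.69% of all genes, and none was below, against 6.89%. The call of Postn was lost without any one of Sham_Nx 2 to 5 or ORX_IH 1, 2 or 5, while that of Mmp14 held in all 19 fits with 1 library left out. This comparison shares the Sham_Nx libraries with that of ORX_Nx.

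Mmp14 had the same size of change at each step. It was at 45.8, 51.2, 65.7 and 45.3 CPM in Sham_Nx, at 70.2, 65.7, 73.8, 61.0 and 60.0 CPM in Sham_IH, at 63.1, 66.9, 63.2, 59.1 and 78.4 CPM in ORX_Nx and at 86.3, 87.4, 89.2, 68.4 and 89.2 CPM in ORX_IH. The 5 ORX_IH libraries were above all of Sham_Nx, and 4 of them above every other library. Orchiectomy changed its level by 0.35 in both exposures, intermittent hypoxia by 0.35 after both operations, and the interaction was -0.00016 with a 95% interval from -0.31 to 0.31. Of these single steps, that of orchiectomy in normoxia passed, and it lost the call in 13 of 19 fits with 1 library left out.

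Beyond the members, 4 further lists of 127 genes found in the table were examined: other matrix proteins, collagen processing, growth factor signalling, and other stellate and portal fibroblast markers. These genes too were chosen with earlier results of these data known. In ORX_Nx against Sham_Nx 14 of those tested rose (11.5%, against 7.88% of all genes) and 2 fell (1.64%, against 6.46%), with 95 positive and a median of 0.31. Gas6, a ligand of Axl and related receptor kinases that stellate cells and macrophages make, had the smallest adjusted p at 0.83 ± 0.17 (0.00432). It was at 38.4, 40.0, 40.1 and 48.3 CPM in Sham_Nx and at 89.6, 57.9, 62.4, 88.1 and 71.6 CPM in ORX_Nx, with no overlap. The basement membrane linker Nid1 rose by 0.59 ± 0.15 (0.0159), the procollagen enhancer Pcolce2 by 0.99 ± 0.26 (0.0179) and the macrophage elastase Mmp12 by 1.49 ± 0.39 (0.0176).

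Against this trend the matricellular protein Ccn1 fell by 0.75 ± 0.17 on the log2 scale (adjusted p = 0.00806). It was at 17.9, 24.1, 19.6 and 19.7 CPM in Sham_Nx and at 10.5, 11.7, 16.2, 10.1 and 12.1 CPM in ORX_Nx, all lower. Under both treatments Ccn1 was also below every Sham_Nx library, a fall of 0.74 ± 0.17 (adjusted p = 0.00964). There, 2 of these genes rose and 3 fell, which is 1.64 and 2.46% of those tested, below the 3.53 and 5.1% of all genes. Pi16, a marker of a fibroblast population, rose by 0.71 ± 0.20 (0.0311) and the filament protein Nes by 0.67 ± 0.20 (0.0439), while the actin-binding protein Cald1 fell by 0.36 ± 0.07 (0.00247) and the matrix protein Spon2 by 0.87 ± 0.21 (0.0154). For Pi16, ORX_IH 3 at 4.60 CPM was below Sham_Nx 5 at 5.38 CPM. For Spon2, ORX_IH 3 at 17.1 CPM was above Sham_Nx 3 at 16.7 CPM. Every Sham_IH library was above every Sham_Nx library for Pi16 and Nes, and below for Ccn1, Cald1 and Spon2. These separations were not calls. In Sham_IH against Sham_Nx, 4.31% of all genes lay above in every library and 4.21% below. In ORX_IH against Sham_IH 2 rose (1.64%, against 1.31% of all genes). Gas6 was one, at 0.59 ± 0.16 (adjusted p = 0.0473). The other, the tropomyosin Tpm2 at 3.20 ± 0.80 (0.0360), was at 95.5 and 51.8 CPM in ORX_IH 1 and 2, the libraries with muscle RNA, and at 5.87, 3.15 and 4.14 CPM in ORX_IH 3 to 5, against 1.98 to 5.53 CPM in Sham_IH. In the other comparisons of 2 groups and in the interaction 0 of them were called.

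The authors' deposited table gives each gene an F statistic, a p and a q, with no statement of the groups they contrast. A q under 0.05 was listed for 1450 of 35982 genes, or 4.03%, in the authors' deposited table. That share also counts genes with few or no reads, so it is not comparable with the shares over the 16164 genes tested. Among the members there were 5 in the authors' deposited table: Col14a1 (q = 0.0127), Mmp14 (q = 0.0170), Col3a1 (q = 0.0368), Sparc (q = 0.0487) and Postn (q = 0.0495).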

How the data were processed

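Liver messenger RNA of 19 mice was analysed, grouped by the sample titles. Per the labels' protocols, poly(A) RNA was made into directional libraries. Per the submitters' processing notes, the tools were kallisto 0.46.1, fastp 0.23.2, bcl2fastq 2.20, FastQC 0.11.9 and MultiQC 1.12, and the build GRCm39. The authors deposited estimated counts per gene, of which 27.5% were not whole. The authors also deposited a log2 expression table with an F score, a p-value and a q-value for each gene, and no source says how these were made. Columns of other samples numbered 0.

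Counts were rounded, filtered by filterByExpr (minimum count 10), scaled by trimmed mean of M-values and fitted with edgeR 4.0.16 in R 4.3.3, 1 mean per group over all 4 groups. F-tests were adjusted by the Benjamini-Hochberg method over 16164 genes, and a gene was called at an adjusted p under 0.05. SE is the log2 change divided by the square root of F, and 95% intervals use the t quantile at the degrees of freedom of the test. The pipeline was tested on simulated data. DESeq2 1.42.0, limma 3.58.1 (voom on the counts, trend on the deposited log2 values), other scalings, filters and sets of libraries were alternatives. Replicate libraries differed by a chi-square per degree of freedom of 19.3 to 184, so none was a copy. The sample titles number the mice, so p-values measure the spread between the libraries of numbered mice.

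The members and lists were chosen with earlier results of these data known. Values in every library are given for the 14 members with the smallest adjusted p in the comparisons of 1 treatment and for Des, Lrat, Acta2 and Timp1; other members by range, naming the highest and lowest of each role; genes outside the list by the 6 smallest adjusted p per comparison, of which 1 is not reported here. Mmp14 was added in every library after its values were seen, as were further members named beside the results. RefSeq sequences were read from promoter windows of 250 bases before to 50 after each start on GRCm38.p6.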

Additional observations from a re-analysis of the deposited data

Results flagged for a closer look

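In 18 members and 4 groups, 72 sets of 4 or 5 libraries were examined for a library far from the others of its group, which chance alone gives in about 1 set in 20. There were 3 such values, all in ORX_Nx 5 and all high. Col5a2 was at 11.1 CPM there, against 4.70 in the next ORX_Nx library. Lrat was at 21.8 CPM, against 14.7 in the next. Timp1 was at 1.17 CPM, against 0.201 in the next. The same library had the lowest hepatocyte marker sum, 79370 CPM, and a Kupffer cell and macrophage sum of 848 CPM. The part of these in the 3 values was not tested.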

How the results depend on the processing

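The sign never changed in 462 values of the 14 members given in every library and called in ORX_Nx against Sham_Nx. These cover the 14 other settings and 19 fits with 1 library left out. The 14 were picked for small adjusted p in the same data, and the fits share most libraries. The steadiness of direction can therefore not be judged from them. Des and Acta2, which were not picked by p, changed sign in that comparison. The number called in that comparison (19) was 12 without a filter on low counts, 11 by limma-voom, 10 by limma-trend on the deposited log2 table, 2 with only the groups compared, 1 without the 4 libraries highest in muscle genes, 8 without the 3 highest in acinar genes, 4 without ORX_Nx 4 and 5, 4 with library numbers 1 to 16 only and 1 without the 3 ORX_Nx libraries highest in fibrillar collagens (chosen after the data were seen). Over all genes the share called, 14.3% in the main fit, was 7.78, 11.4, 12.8, 5.98, 2.53, 6.79, 9.03, 6.76 and 5.88% in the same order. Library numbers open the column names. Numbers 17 to 20 are mouse 5 of each group, so the setting with numbers 1 to 16 leaves out ORX_Nx 5. The analysed libraries with numbers 1 to 4 are ORX_Nx, 5 to 8 ORX_IH, 10 to 12 Sham_Nx and 13 to 16 Sham_IH. Block of numbers and group can therefore not be told apart. The number of members called ranged from 5 to 22 with 1 library left out. The replicate block gave 12, all among the 19, with 11.1% of all genes called. The mouse numbers share no stated litter, batch or day. Over 27 same-numbered pairs the correlation of deviations lay between -0.18 and 0.63, and 4 were over 0.1. Of 19 libraries 8 correlated best with their own mouse number.

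In ORX_IH against Sham_IH the count (0) was 3 without scaling factors, 2 by DESeq2, 2 with only the groups compared, 2 without ORX_Nx 4 and 5, 1 without the 3 highest in collagens, and 0 to 2 with 1 library left out. Over all genes 2.88% were called in the main fit and 6.01, 5.36, 3.95, 5.58 and 5.18% in the named settings in order. In ORX_IH against ORX_Nx the count (0) was 3 by DESeq2, which called 4.4% of all genes, and 0 to 2 with 1 library left out. In ORX_IH against Sham_Nx the count (2) was 5 with only the groups compared, 1 without the muscle pair of ORX_IH, 0 without the 4 highest in muscle genes, 1 without the 3 highest in acinar genes, 4 without ORX_Nx 4 and 5, 1 with library numbers 1 to 16, 5 without the 3 highest in collagens and 1 to 4 with 1 library left out. Over all genes 8.62% were called in the main fit and 8.99, 3.8, 0.791, 3.11, 12.5, 6.18 and 12.2% in the named settings in order. In Sham_IH against Sham_Nx and in the interaction the member count was 0 throughout.

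For the 17 tested members given in every library, in the 4 comparisons of 1 treatment, the sign of a log2 change differed in 88 of 2244 values, where neither fit made a call; the other members are not in this list. In ORX_Nx against Sham_Nx it was, without scaling factors Des 0.11, and by limma-voom Des 0.042, and by limma-trend Des 0.014. There it was also, with the replicate block Des 0.022, and without the 4 highest in muscle Des 0.57, and without the 3 highest in collagens Acta2 -0.64. With 1 library left out, the range in that comparison was -0.22 to 0.39 for Des. In ORX_IH against Sham_IH it was, by limma-voom Tagln -0.050, and without the muscle pair Tagln -0.26 and Des -0.16, and without the 4 highest in muscle Tagln -0.26 and Des -0.15. There it was also, without the 3 highest in acinar genes Tagln -0.032, and with numbers 1 to 16 Acta2 0.13. With 1 library left out, the range in that comparison was -0.13 to 0.13 for Tagln and -0.057 to 0.15 for Col6a3. In Sham_IH against Sham_Nx it was, without scaling factors Sparc -0.0080 and Col1a1 -0.0043, and without the filter Sparc -0.0028, and by limma-voom Col1a1 -0.00098 and Lrat 0.045. There it was also, by limma-trend Col3a1 -0.041, Sparc -0.0063, Col1a1 -0.056 and Lrat 0.013, and with the replicate block Col1a1 -0.097 and Lrat 0.045, and without the 4 highest in muscle Tgfb1 0.056, Lamb1 0.036, Des 0.19 and Lrat 0.31. There it was also, without the 3 highest in acinar genes Col3a1 -0.13, Sparc -0.081, Col1a1 -0.29 and Col5a1 -0.024, and with numbers 1 to 16 Col3a1 -0.14, Postn -0.0051, Sparc -0.092, Col1a1 -0.30 and Col5a1 -0.035. With 1 library left out, the range in that comparison was -0.12 to 0.054 for Lamb1, -0.57 to 0.015 for Des, -0.17 to 0.19 for Lrat, -0.054 to 0.064 for Sparc, -0.27 to 0.25 for Col1a1, -0.11 to 0.050 for Tgfb1, -0.18 to 0.22 for Col3a1, -0.20 to 0.00080 for Col6a3 and -0.00089 to 0.24 for Col5a1. In ORX_IH against ORX_Nx it was, without the muscle pair Des -0.53, and without the 4 highest in muscle Des -0.53, and without ORX_Nx 4 and 5 Ngfr 0.0011, Tagln 0.0049, Tgfb1 0.012 and Lrat 0.040. There it was also, with numbers 1 to 16 Pdgfrb 0.020 and Lrat 0.057, and without the 3 highest in collagens Postn 0.19, Sparc 0.12, Col5a2 0.16, Ngfr 0.20, Pdgfrb 0.21, Tagln 0.41, Tgfb1 0.016, Lamb1 0.092, Lrat 0.058 and Acta2 1.41. With 1 library left out, the range in that comparison was -0.20 to 0.038 for Lrat.

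The cause of these differences was not tested. At this depth Timp1, with 0 to 42 counts, could not be tested.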
